A study of Homo sapiens with 6 samples.

Results

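The genes described here are 56 protein-coding genes of the DNA damage checkpoint and of DNA repair, out of 60623 genes in the deposited table. They were chosen by symbol, with earlier results of these data known, each symbol matched exactly 1 row, and they fall into 6 pathways: 9 checkpoint genes, 17 of homologous recombination, 10 of the Fanconi anaemia pathway, 3 of mismatch repair, 9 of excision repair and 8 of end joining. RNA was sequenced from cells given as Huh7, an established line from a human liver cancer. In 3 libraries SRSF10 was knocked down by shRNA, and 3 control libraries have the genotype label WT and titles starting with NC. No other treatment is labelled. Whether a control shRNA was used is not stated, so shRNA delivery and loss of SRSF10 cannot be told apart. Separate cultures or clones are not stated either, so p-values measure the spread between these libraries, which may be technical.

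Cells copy and guard their genome with several overlapping systems. The kinases ATM and ATR sense broken and single-stranded DNA and act through CHEK2 and CHEK1 to hold the cell cycle. Homologous recombination copies an intact sister strand to mend a break, the Fanconi anaemia pathway unhooks crosslinks between strands, mismatch repair removes copying errors, excision repair replaces damaged bases or short patches, and end joining ties broken ends together. Many of these genes are transcribed most strongly in cells that are about to copy, or are copying, their DNA.

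SRSF10, an SR protein that regulates splicing, was at 10.6, 10.8 and 10.6 FPKM (fragments scaled to gene length and library size) in the knockdown libraries, against 18.6, 19.5 and 19.8 FPKM in the controls. Its mean was 44.8% lower in the knockdown (log2 fold change -0.80, SE 0.038, with a limma adjusted p = 0.000166; exact two-sided permutation p = 0.1, the smallest that 3 against 3 allows). Depth, estimated from the steps between low FPKM values, was 12720000 to 14350000 fragments per library. Of 12 hepatocyte markers 8 were under 1 FPKM in every library, among them ALB, AFP, APOA1 and SERPINA1, which goes against the Huh7 label. TTR and APOA2 were listed at 0, while HNF4A, FOXA2 and FGB were above 1 FPKM in every library. The immune markers were all under 1 FPKM in every library. Summed levels of the 6 fibroblast or stellate markers were 9.13 to 10.3 FPKM in the knockdown and 4.12 to 5.15 FPKM in the controls, and those of the 4 endothelial markers were 9.46 to 10.8 FPKM in the knockdown and 5.43 to 6.13 FPKM in the controls. Most of these sums came from LUM, PECAM1 and KDR, while COL1A1, COL1A2, PDGFRB, VWF and CDH5 were near 0, and the part of other cell types in the results below was not tested. In bulk RNA, fewer cells that express a gene and less RNA per cell cannot be told apart.

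Of the DNA damage repair genes, 21 were lower in SRSF10-knockdown cells, 1 was higher and 33 did not pass the test. Of the 56 genes 55 reached 1 FPKM in at least 3 libraries and were tested, and all 55 were above that level in all 6 libraries. Of these, 21 were lower and 1 was higher in the knockdown (limma on log2(FPKM + 1), adjusted p under 0.05 over all 12191 tested genes). Over all tested genes 12.5% were lower and 12.6% were higher, against 38.2% and 1.82% of the repair genes. The median log2 fold change was -0.13 over the 55 genes and -0.01 over all tested genes. Below 0 were 43 of the 55 values and above 0 were 12. The genes that fell did so by 9.56% to 38.2% of the control mean, with a median of 18.7%. For 32 of the 55 genes all 3 knockdown values lay below all 3 control values, where 22% of all tested genes showed that order, and the 21 called genes were among them. Relative to its mean in the controls, the median tested repair gene stood at 89.3%, 90.7% and 90.4% in the 3 knockdown libraries and at 99.8%, 99.6% and 100.6% in the 3 control libraries. The 3 knockdown libraries were alike in this measure.

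**Figure D1:**
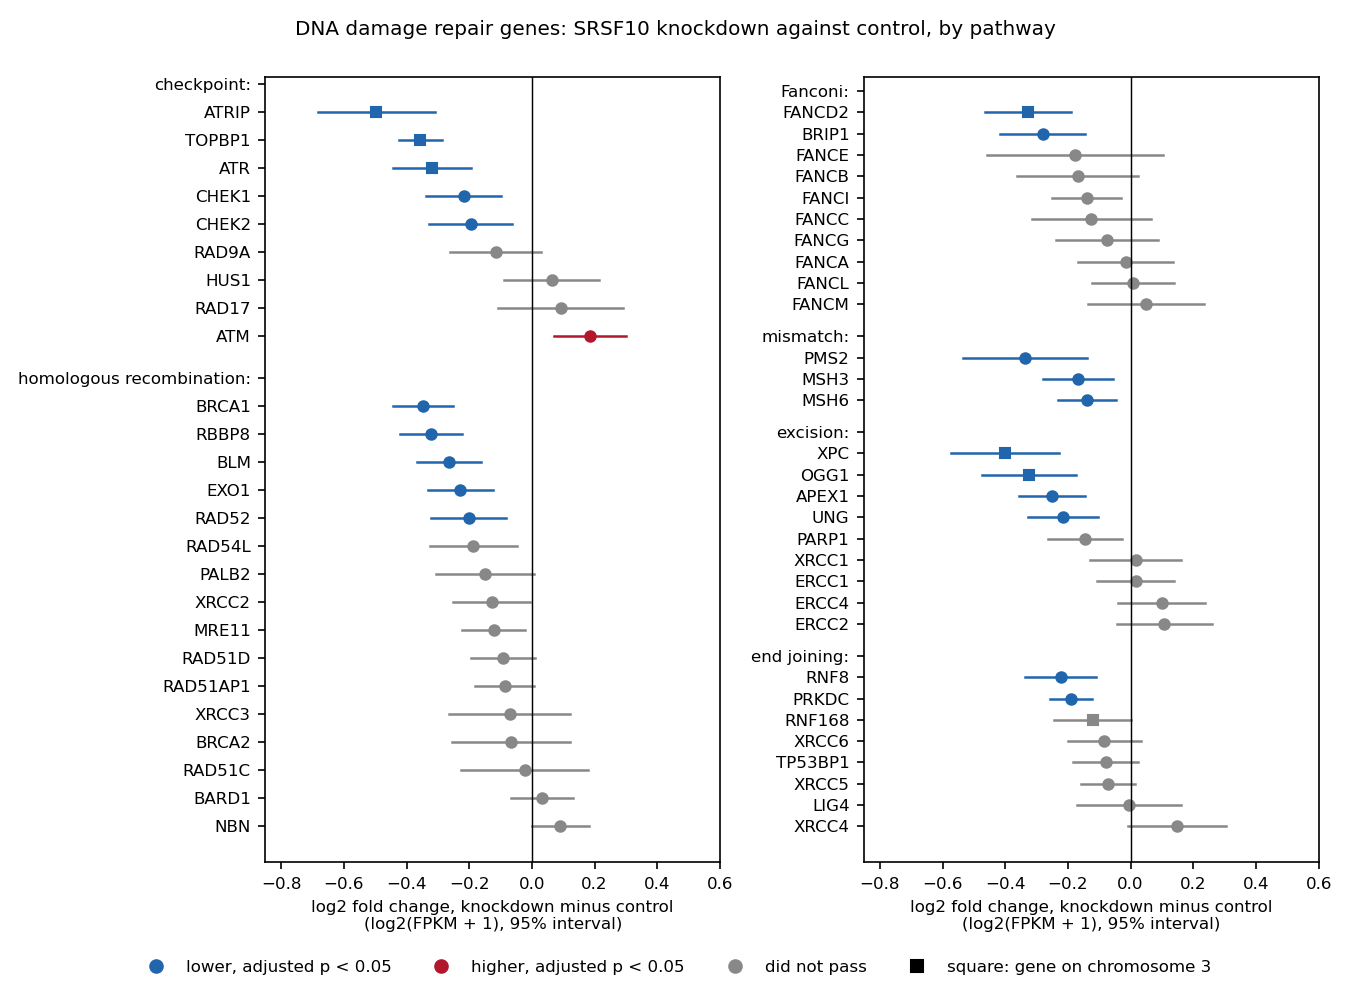
Log2 fold change (knockdown minus control, on the log2(FPKM + 1) scale) of the 55 tested repair genes by pathway, with 95% intervals from limma. Blue genes were lower and the red gene, ATM, was higher at an adjusted p under 0.05, grey genes did not pass, and squares mark genes on chromosome 3. Of the 7 squares, 6 are blue.

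Levels and precision differed widely among the genes. Control means ran from 1.54 FPKM (XRCC3) to 116.6 FPKM (PRKDC), with a median of 6.29 FPKM. FPKM is divided by gene length, but this does not account for exons shared with other genes, so levels compare only roughly between genes. XRCC3 shares 76.7% of its exon bases with KLC1 on the opposite strand, and the part of this overlap in its level was not tested. The least covered library of the least covered tested gene, FANCB, held an estimated 88 fragments, and the median gene had 490 in its lowest library, for which counting alone gives a coefficient of variation of 4.52%. Between replicates, the median gene varied by 4.73%. At that spread, changes of a few percent in genes of low level were not detectable.

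The start regions of some genes that fell hold letters known from binding sites of E2F factors, the transcription factors that switch on S-phase genes, and 5 of them are printed because they show where those letters lie relative to the annotated start. RefSeq promoters, 250 bases before to 50 bases after each annotated start on GRCh38.p14, were given for 51 of the 56 genes. The motifs searched on both strands were TTTGGCGC, TTTCCCGC, TTTGCCGC and TTTCGCGC, of which TTTGGCGC and TTTCGCGC can overlap on opposite strands. At least 1 was found in a promoter of 8 of 20 genes that fell (40%), 4 of 29 that did not pass (13.8%), 7.02% of 8559 tested genes with a promoter and 10.7% of the tested genes that fell. The 8 genes were TOPBP1, EXO1, FANCD2, MSH3, MSH6, PMS2, XPC and UNG, and the 4 were XRCC2, FANCC, FANCA and XRCC6. Of the 8, MSH3, MSH6, PMS2 and UNG lost their call in fits that left out a library. A gene with several annotated starts counted if any of its promoters held a motif. Among the replication genes listed below, 57.6% held a motif. The letters TTTGAA or TTTAAA, the core of the CHR element of mitotic genes, were found for 5 of the 20 (25%) and for 21% of tested genes. Among the repair genes that fell outside chromosome 3, the shares were equal: 5 of 14 (35.7%) for the E2F-like letters and 5 of 14 (35.7%) for the CHR letters. A match describes these letters and is not evidence of binding. In the sequences, written 5′ to 3′ along the gene, capitals mark the E2F-like letters:
TOPBP1 (chr3:133661892-133662191, minus strand): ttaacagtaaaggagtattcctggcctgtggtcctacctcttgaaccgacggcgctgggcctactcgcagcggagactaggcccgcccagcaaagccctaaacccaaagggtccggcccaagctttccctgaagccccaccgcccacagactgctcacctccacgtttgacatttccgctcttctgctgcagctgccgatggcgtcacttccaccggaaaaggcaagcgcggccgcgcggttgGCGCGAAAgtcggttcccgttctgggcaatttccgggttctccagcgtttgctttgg
EXO1 (chr1:241847954-241848253, plus strand): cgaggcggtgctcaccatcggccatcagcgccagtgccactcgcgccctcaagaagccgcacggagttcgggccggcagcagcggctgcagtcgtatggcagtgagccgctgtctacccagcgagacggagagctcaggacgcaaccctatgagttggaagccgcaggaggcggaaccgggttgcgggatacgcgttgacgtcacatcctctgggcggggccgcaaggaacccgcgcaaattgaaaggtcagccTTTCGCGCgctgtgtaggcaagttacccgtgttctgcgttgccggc
FANCD2 (chr3:10026187-10026486, plus strand): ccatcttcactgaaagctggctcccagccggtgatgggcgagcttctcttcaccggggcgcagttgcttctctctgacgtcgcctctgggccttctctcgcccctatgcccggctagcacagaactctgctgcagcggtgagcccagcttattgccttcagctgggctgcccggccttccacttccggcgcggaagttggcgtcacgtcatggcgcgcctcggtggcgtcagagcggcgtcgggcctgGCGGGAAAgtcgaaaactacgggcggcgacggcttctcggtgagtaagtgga
MSH3 (chr5:80654402-80654701, plus strand): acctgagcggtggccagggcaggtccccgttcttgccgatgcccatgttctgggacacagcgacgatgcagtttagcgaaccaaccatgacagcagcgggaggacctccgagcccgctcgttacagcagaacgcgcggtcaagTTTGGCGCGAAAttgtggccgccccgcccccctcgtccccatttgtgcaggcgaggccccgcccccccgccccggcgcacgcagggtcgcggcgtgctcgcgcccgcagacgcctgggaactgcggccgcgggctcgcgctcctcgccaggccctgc
XPC (chr3:14178552-14178851, minus strand): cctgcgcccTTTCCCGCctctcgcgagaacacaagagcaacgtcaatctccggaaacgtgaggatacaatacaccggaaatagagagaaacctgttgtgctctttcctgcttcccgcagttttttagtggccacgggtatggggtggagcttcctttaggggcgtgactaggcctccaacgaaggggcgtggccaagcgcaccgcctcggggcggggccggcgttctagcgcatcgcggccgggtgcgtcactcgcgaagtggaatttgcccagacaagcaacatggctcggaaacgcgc

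In 3 of the 5 sequences the letters lie at the annotated start: they begin 7 bases before it in TOPBP1, 2 bases before it in FANCD2 and 4 bases after it in EXO1. In MSH3 a match on each strand overlaps the other, beginning 107 and 103 bases before the start. In XPC the match lies farthest out, 241 bases before the start. Among genes that fell and have a match but are not printed, the letters begin 3 bases after a start in MSH6 and 63 bases before a start in UNG. In PMS2 they begin 43 or 100 bases before it, depending on the annotated start.

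Of 9 checkpoint genes 5 fell (55.6%) and 1 rose (11.1%), with a median log2 fold change of -0.19. Of all tested genes 12.5% fell and 12.6% rose, so the share that rose is near that of all tested genes. ATRIP, the partner that brings ATR to single-stranded DNA (chromosome 3, 48446710 to 48467645), was at 2.18, 1.68 and 1.87 FPKM in the knockdown, against 3.09, 3.07 and 3.13 FPKM in the controls. That is the largest fall among the repair genes, 38.2% (log2 fold change -0.50 with SE 0.078, limma adjusted p = 0.00547). Its exons share 27.9% of their bases with TREX1, a nuclease gene on the same strand that is listed at 0 in every library, and the part of this overlap in the values of ATRIP was not tested. TOPBP1, which activates ATR (chromosome 3, 133598175 to 133662380), was at 29.6, 29.7 and 30.2 FPKM in the knockdown and at 38.7, 38.4 and 38.3 FPKM in the controls. The groups were far apart and the replicates close, which gave TOPBP1 the smallest adjusted p of the 55 genes (log2 fold change -0.36 with SE 0.029, limma adjusted p = 0.000662). ATR itself (chromosome 3, 142449235 to 142578826) was at 4.90, 5.49 and 5.34 FPKM in the knockdown and 6.63, 6.96 and 6.76 FPKM in the controls, a fall of 22.7% (limma adjusted p = 0.00625). CHEK1, the kinase that carries the ATR signal, was at 12.7, 12.4 and 12.01 FPKM in the knockdown and 15.5, 13.9 and 14.2 FPKM in the controls. In each of these 4 genes every knockdown value lay below every control value, an order found in 6 of the 9 checkpoint genes and in 22% of all tested genes. ATRIP, TOPBP1 and ATR lie on chromosome 3, where genes were lower in general.

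ATM, the kinase that answers DNA breaks (chromosome 11, 108222484 to 108369102), was the 1 gene of the 55 that rose. It was at 6.64, 6.597 and 6.29 FPKM in the knockdown, against 5.63, 5.34 and 5.84 FPKM in the controls (log2 fold change 0.19 with SE 0.049, limma adjusted p = 0.0337). CHEK2, the kinase that ATM activates, was lower, at 3.21, 3.15 and 3.54 FPKM in the knockdown and 3.87, 3.97 and 3.91 FPKM in the controls (limma adjusted p = 0.0442). NPAT, which starts beside ATM and is read the other way, averaged 6.88 ± 0.26 FPKM in the knockdown and 7.51 ± 0.034 FPKM in the controls (SD, n = 3 each; limma adjusted p = 0.108) and did not pass. The loader RAD17 and the clamp subunits RAD9A and HUS1, which sit upstream of TOPBP1, did not pass, with log2 fold changes of 0.09, -0.12 and 0.06. ATM missed the threshold without control replicate 1 (adjusted p = 0.0800) or 2 (0.0875) and without knockdown replicate 1 (0.106), 2 (0.105) or 3 (0.0631), and CHEK1 without knockdown replicate 2 (0.0638) or 3 (0.0751). CHEK2 missed it without control replicate 1 (0.0951), 2 (0.108) or 3 (0.0896) and without knockdown replicate 1 (0.128) or 2 (0.137).

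Homologous recombination genes showed 5 falls (31.25%) and 0 rises among 16 tested, where 12.5% of all tested genes fell and 12.6% rose. The median log2 fold change was -0.12. BRCA1, which promotes end resection and loading of the recombinase (chromosome 17, 43044295 to 43170245), was at 15.2, 15.5 and 15.4 FPKM in the knockdown and at 19.4, 19.3 and 20.8 FPKM in the controls (log2 fold change -0.35 with SE 0.040, limma adjusted p = 0.00181). RBBP8, also known as CtIP, which starts resection together with the MRE11 nuclease, was at 22.6, 20.9 and 21.2 FPKM in the knockdown and 26.5, 27.5 and 27.7 FPKM in the controls (log2 fold change -0.32, limma adjusted p = 0.00271). EXO1, the nuclease that extends resection, was at 17.2, 16.2 and 17.1 FPKM in the knockdown and 20.2, 20.5 and 19.0 FPKM in the controls (log2 fold change -0.23, limma adjusted p = 0.0110). BLM, a helicase that works in resection and in untangling joined strands, was at 6.31, 6.28 and 6.72 FPKM in the knockdown and 7.96, 7.98 and 7.82 FPKM in the controls (log2 fold change -0.26, limma adjusted p = 0.00628). In each of these 4 genes every knockdown value lay below every control value. That order held in 10 of the 16 tested recombination genes and in 22% of all tested genes. RAD52, an annealing protein, was at 3.62, 3.73 and 3.83 FPKM in the knockdown and 4.54, 4.26 and 4.51 FPKM in the controls (limma adjusted p = 0.0267). RAD52 missed the threshold without control replicate 1 (adjusted p = 0.0824) or 3 (0.0670) and without knockdown replicate 1 (0.0894), 2 (0.0788) or 3 (0.0621).

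Several partners of BRCA1 did not pass. BARD1, which pairs with BRCA1 in a ubiquitin ligase, averaged 5.59 ± 0.070 FPKM in the knockdown and 5.44 ± 0.10 FPKM in the controls (SD, n = 3 each), a log2 fold change of 0.03 with a 95% interval of -0.07 to 0.13, where that of BRCA1 was -0.44 to -0.25. The difference between BRCA1 and BARD1 was not tested. PALB2, which links BRCA1 to BRCA2, averaged 8.18 ± 0.51 FPKM in the knockdown and 9.19 ± 0.71 FPKM in the controls. BRCA2, which loads the recombinase, averaged 1.96 ± 0.21 FPKM in the knockdown and 2.09 ± 0.12 FPKM in the controls, and neither passed. In the complex that detects broken ends, NBN was the most abundant recombination gene, at 37.5, 38.6 and 37.3 FPKM in the knockdown and 34.1, 36.8 and 35.4 FPKM in the controls. Its groups did not overlap but it did not pass (limma adjusted p = 0.133), nor did MRE11 at -0.12 on the log2 scale. RAD50, the third subunit, was the 1 gene below the level tested, at 0.568, 0.681 and 0.645 FPKM in the knockdown and 0.632, 0.402 and 0.538 FPKM in the controls. Of its exon bases 79.7% are shared with AC116366.3, a gene on the same strand listed at 0 in every library, and the part of this overlap in the low level of RAD50 was not tested. The paralogs and helpers of the recombinase (RAD51C, RAD51D, XRCC2, XRCC3, RAD51AP1 and RAD54L) had log2 fold changes of -0.19 to -0.02 and none passed. RAD54L was nearest, with an adjusted p of 0.0567, and had the largest change on the log2(FPKM + 1) scale of the genes that did not pass, while by percent of the control mean FANCB (14.9% lower) and FANCE (14.7% lower) were further from the controls than RAD54L (14.4% lower).

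**Figure D2:**
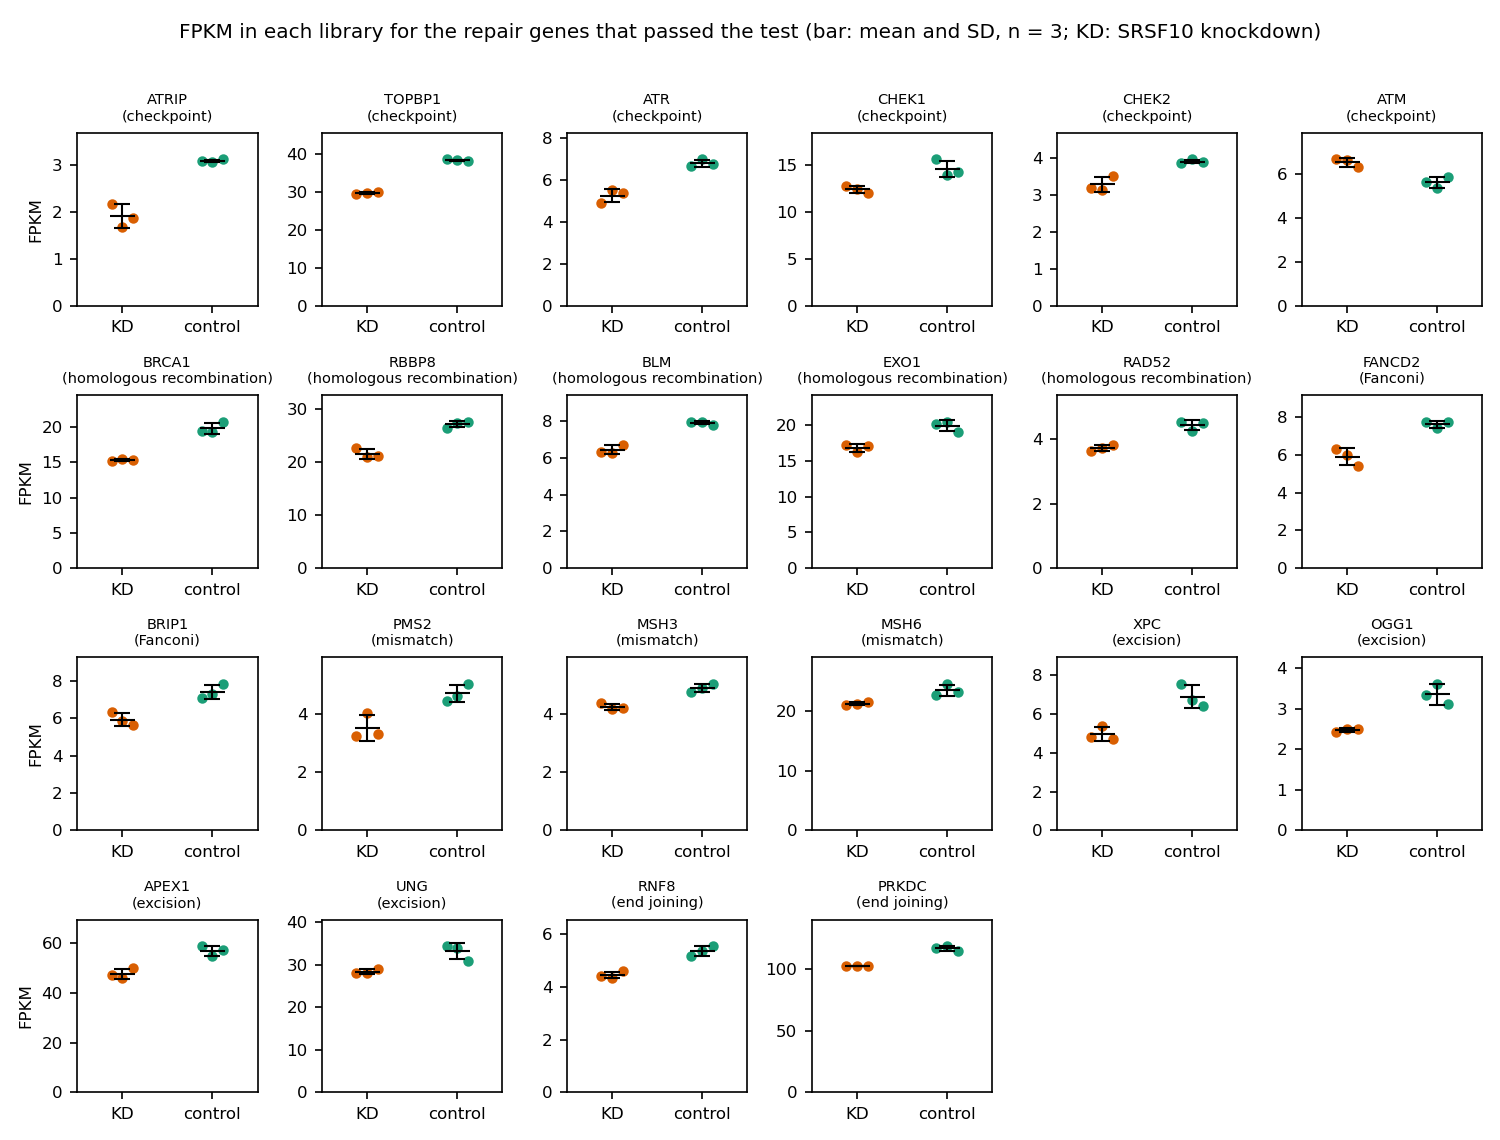
FPKM in each of the 3 SRSF10-knockdown (KD) and 3 control libraries for the 22 repair genes that passed the test, with the mean and SD of each group. The axes start at 0 and differ between panels. In all 22 panels the groups do not overlap, with the knockdown below the controls except in ATM. Of all tested genes 22% had every knockdown value below every control value.

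In the Fanconi anaemia pathway 2 of 10 genes fell (20%) and 0 rose, where 12.5% of all tested genes fell. Of the 2, FANCD2 lies on chromosome 3, where genes were lower in general. FANCD2, which is ubiquitinated at stalled forks and marks the crosslink for removal (chromosome 3, 10026414 to 10101930), was at 6.30, 5.98 and 5.41 FPKM in the knockdown and 7.73, 7.43 and 7.77 FPKM in the controls (log2 fold change -0.33 with SE 0.058, limma adjusted p = 0.00836). FANCI, its partner and the most abundant gene of the group, was at 21.2, 21.6 and 22.2 FPKM in the knockdown and 23.1, 25.5 and 23.4 FPKM in the controls, without overlap, but did not pass (log2 fold change -0.14, limma adjusted p = 0.0674). BRIP1, a helicase that binds BRCA1, was at 6.34, 5.85 and 5.65 FPKM in the knockdown and 7.12, 7.32 and 7.86 FPKM in the controls (log2 fold change -0.28, limma adjusted p = 0.0137). The core ligase genes that ubiquitinate FANCD2 (FANCA, FANCB, FANCC, FANCE, FANCG, FANCL) and the translocase FANCM had log2 fold changes of -0.18 to 0.05, and none passed. FANCE and FANCB had the largest changes among them, -0.18 and -0.17, with wide replicate spread in FANCE. BRIP1 missed the threshold without knockdown replicate 2 (adjusted p = 0.0501) or 3 (0.0513).

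All 3 mismatch repair genes fell, where 12.5% of all tested genes fell. PMS2 fell by 25.0%, MSH3 by 13.2% and MSH6 by 9.56% of the control mean. PMS2, part of the endonuclease that nicks the new strand, was at 3.24, 4.05 and 3.30 FPKM in the knockdown and 4.45, 4.64 and 5.05 FPKM in the controls (log2 fold change -0.34 with SE 0.083, limma adjusted p = 0.0265). PMS2 has a close copy, PMS2CL, at 3.91 ± 0.29 FPKM in the knockdown and 4.28 ± 0.27 FPKM in the controls (SD, n = 3 each; limma adjusted p = 0.304), so the values of PMS2 are uncertain as far as reads of the pair were divided between them. MSH3, which recognises small loops, was at 4.37, 4.16 and 4.202 FPKM in the knockdown and 4.75, 4.89 and 5.04 FPKM in the controls (limma adjusted p = 0.0418). MSH6, which recognises single mismatched bases and is the most abundant of the 3, was at 21.1, 21.1 and 21.6 FPKM in the knockdown and 22.8, 24.6 and 23.2 FPKM in the controls (limma adjusted p = 0.0428). In all 3 genes every knockdown value lay below every control value, as in 22% of all tested genes, but the calls lie close to the threshold. Leaving out any 1 library ended the MSH3 call (adjusted p of 0.0708 to 0.127) and the MSH6 call (0.0512 to 0.122), and the PMS2 call ended without control replicate 2 (0.0614) or 3 (0.0712) and without knockdown replicate 1 (0.0819) or 3 (0.0859).

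In excision repair 4 of 9 genes fell (44.4%) and 0 rose, where 12.5% of all tested genes fell and 12.6% rose. The median log2 fold change was -0.15. APEX1, the endonuclease that cuts where a base is missing, was the most abundant, at 47.2, 46.0 and 50.02 FPKM in the knockdown and 58.9, 54.8 and 57.4 FPKM in the controls (log2 fold change -0.25 with SE 0.044, limma adjusted p = 0.00819). UNG, the glycosylase that removes uracil, was at 28.1, 28.1 and 29.1 FPKM in the knockdown and 34.4, 34.1 and 31.0 FPKM in the controls (log2 fold change -0.22, limma adjusted p = 0.0173). OGG1, the glycosylase for oxidised guanine (chromosome 3, 9749944 to 9788219), was at 2.43, 2.50 and 2.49 FPKM in the knockdown and 3.33, 3.61 and 3.11 FPKM in the controls (log2 fold change -0.32, limma adjusted p = 0.0118). XPC, the sensor of distorted helices in nucleotide excision repair (chromosome 3, 14145147 to 14178783), was at 4.84, 5.37 and 4.71 FPKM in the knockdown and 7.57, 6.72 and 6.4 FPKM in the controls (log2 fold change -0.40 with SE 0.072, limma adjusted p = 0.00864). Of the 56 genes XPC had the largest fall after ATRIP, 27.9%. PARP1, which signals nicks, averaged 39.3 ± 1.5 FPKM in the knockdown and 43.6 ± 2.4 FPKM in the controls (SD, n = 3 each; limma adjusted p = 0.0783), and it passed without control replicate 2 (0.0308). The scaffold XRCC1, the nuclease genes ERCC1 and ERCC4 and the helicase gene ERCC2 had log2 fold changes of 0.02 to 0.11, and none passed. UNG missed the threshold without control replicate 1 (0.0536) or 2 (0.0502) and without knockdown replicate 1 (0.0587) or 2 (0.0615).

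End joining held the most abundant repair genes and showed 2 falls (25%) and 0 rises among 8, where 12.5% of all tested genes fell. PRKDC, the catalytic subunit of the DNA-dependent protein kinase (chromosome 8, 47773108 to 47960183), was at 102.1, 102.0 and 102.1 FPKM in the knockdown and 117, 118 and 114 FPKM in the controls (log2 fold change -0.19 with SE 0.029, limma adjusted p = 0.00466). The knockdown values had an SD of 0.0628 FPKM, and each library held an estimated 20054 fragments or more. XRCC6, a Ku subunit that holds the broken end for that kinase, averaged 103.5 ± 3.9 FPKM in the knockdown and 109.8 ± 5.9 FPKM in the controls (SD, n = 3 each). XRCC5, the other Ku subunit, averaged 103.3 ± 0.61 FPKM in the knockdown and 108.6 ± 4.3 FPKM in the controls, and neither passed. RNF8, a ubiquitin ligase at broken chromatin, was at 4.41, 4.33 and 4.58 FPKM in the knockdown and 5.16, 5.36 and 5.53 FPKM in the controls (log2 fold change -0.22, limma adjusted p = 0.0167). RNF168, the ligase that acts after RNF8, and TP53BP1, which binds the mark that RNF168 makes, did not pass, at -0.12 and -0.08 on the log2 scale. RNF168 passed without control replicate 1 (adjusted p = 0.0469). The ligase LIG4 averaged 3.07 ± 0.29 FPKM in the knockdown and 3.08 ± 0.10 FPKM in the controls, and its partner XRCC4 had a log2 fold change of 0.15 (95% interval -0.01 to 0.31). RNF8 missed the threshold without knockdown replicate 1 (0.0570) or 2 (0.0629).

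Chromosome 3 held 6 of the 21 falls. Of the 7 repair genes there, ATRIP, FANCD2, OGG1 and XPC on the short arm and ATR and TOPBP1 on the long arm fell, and RNF168 did not pass. Genes of this chromosome were lower in general: 56.7% of 326 tested genes of the short arm and 33.2% of 392 of the long arm fell, against 10.6% of 11428 tested genes elsewhere. The median log2 fold change over all tested genes was -0.27 for the short arm and -0.13 for the long arm, and over the repair genes there -0.36 (4 genes) and -0.32 (3 genes). Away from chromosome 3, 15 of 48 tested repair genes fell and 1 rose, or 31.2% and 2.08%, with a median of -0.12 against 0.00 for all tested genes there. Of all tested genes there, 10.6% fell and 13.1% rose. The part of chromosome 3 in the 6 falls was not tested.

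**Figure D3:**
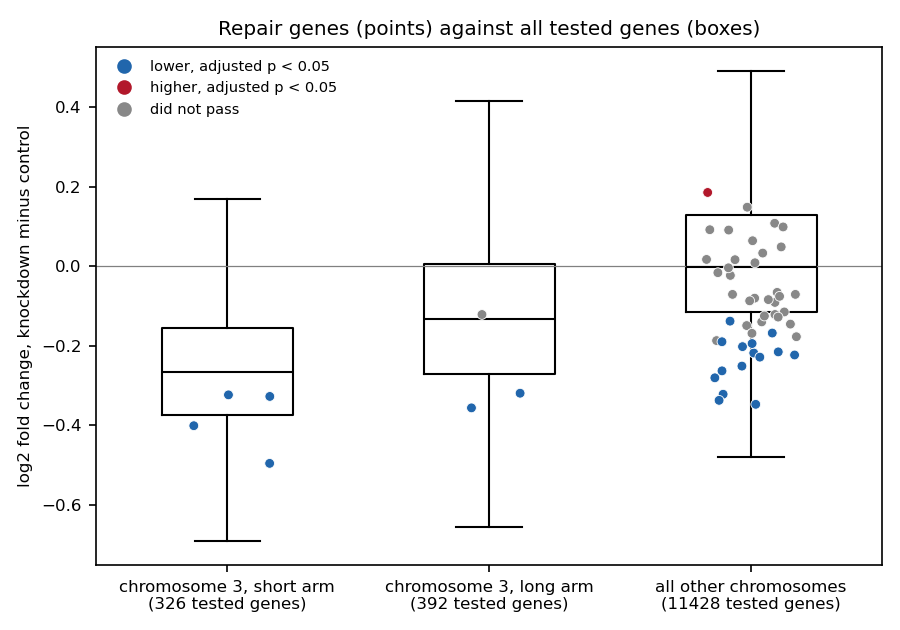
Log2 fold change (knockdown minus control) of the repair genes, as points coloured by call, over boxes of all tested genes (median, quartiles and whiskers to 1.5 times the quartile range) on the 2 arms of chromosome 3 and on all other chromosomes. The chromosome 3 boxes are centred at -0.27 and -0.13, and all 7 repair genes there lie below 0.

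Exon overlap also touches many of these genes. Exons of 15 of the 21 genes that fell overlap those of another gene in GENCODE 29, for 6 of them on the same strand, and whether strand was used in counting is not given in the sources used here. Such an overlap was present in 34 of the 56 repair genes. Of these, 33 were tested, and 15 fell and 1 rose, or 45.45% and 3.03%. Of the 22 repair genes with no such overlap, all tested, 6 fell and 0 rose (EXO1, BLM, BRIP1, PMS2, UNG and PRKDC), or 27.3%. Over all tested genes 12.5% fell and 12.6% rose, with or without such an overlap. Overlap was looked up for the listed genes only, so these shares cannot be set against all tested genes with and without overlap. The part of exon overlap in the falls was not tested.

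Further DNA repair genes, 116 that are not among the 56, were examined beside them. Of these, 115 were found and 103 tested, and 22 fell and 2 rose (21.4% and 1.94%), with a median log2 fold change of -0.07. Over all tested genes 12.5% fell and 12.6% rose. In the checkpoint set 5 of 13 fell (38.5%) and 1 rose (7.69%). ETAA1, a second activator of ATR, fell (3.25 ± 0.25 FPKM in the knockdown and 4.91 ± 0.303 FPKM in the controls, limma adjusted p = 0.00366). So did CLSPN, the adaptor between ATR and CHEK1 (5.73 ± 0.18 FPKM in the knockdown and 7.82 ± 0.53 FPKM in the controls, limma adjusted p = 0.00425). RPA2, a subunit of the protein that coats single-stranded DNA, fell too (limma adjusted p = 0.00787). H2AX, the histone variant phosphorylated at breaks, rose, at 56.2, 50.6 and 53.6 FPKM in the knockdown and 44.2, 42.5 and 45.5 FPKM in the controls (log2 fold change 0.27, limma adjusted p = 0.00792). RMI1, which works with BLM, averaged 9.001 ± 0.396 FPKM in the knockdown and 12.03 ± 0.82 FPKM in the controls (limma adjusted p = 0.00496), and among 24 further recombination genes 3 fell and 0 rose, GEN1 and BRCC3 being the others. That share, 12.5%, equals the share of all tested genes that fell. CENPX, USP1 and WDR48 fell among 10 further Fanconi genes (30%), with log2 fold changes of -0.38, -0.23 and -0.23. WDR48 was close to the threshold (limma adjusted p = 0.0491). In excision repair 5 of 32 fell (15.6%, near the 12.5% of all tested genes) and 0 rose. The falls were led by the glycosylase MBD4 on chromosome 3 (24.2 ± 0.19 FPKM in the knockdown and 32.5 ± 1.1 FPKM in the controls, limma adjusted p = 0.000814), GTF2H3 and the flap nuclease FEN1. POLQ, RIF1 and SHLD2 fell among 12 further end joining genes (25%, where 12.5% of all tested genes fell). In mismatch repair 2 of 4 fell (50%) and 0 rose. Among 8 genes of translesion synthesis and direct reversal RAD18 fell, at 6.97 ± 0.14 FPKM in the knockdown and 10.1 ± 0.11 FPKM in the controls (limma adjusted p = 0.00062), and the polymerase POLH rose, at 8.09 ± 0.27 FPKM in the knockdown and 6.51 ± 0.033 FPKM in the controls (limma adjusted p = 0.00481). Those shares, 12.5% that fell and 12.5% that rose, are near those of all tested genes. RAD18 lies on chromosome 3, as do CDC25A, WDR48, MBD4 and POLQ. Outside chromosome 3, 16 of 96 further repair genes fell (16.7%), where 10.6% of all tested genes outside it fell.

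Genes of DNA replication, whose transcripts rise as cells enter S phase, were lower for the most part. Of 39 genes, all tested, 27 fell and 0 rose (69.2%), with a median log2 fold change of -0.27. Outside chromosome 3, 25 of 37 fell, with a median of -0.25. MCM2, a subunit of the replicative helicase on the long arm of chromosome 3, averaged 37.2 ± 0.78 FPKM in the knockdown and 50.9 ± 0.98 FPKM in the controls (limma adjusted p = 0.000511), and CDC45 and PCNA, which hold the helicase and the polymerase at the fork, had log2 fold changes of -0.39 and -0.37. MCM4, a helicase subunit gene that lies head to head with PRKDC, had a log2 fold change of -0.30 (limma adjusted p = 0.00177). In the mitosis list 2 of 23 tested genes fell and 3 rose, with a median of 0.03. Those shares, 8.7% and 13.0%, are near the 12.5% and 12.6% of all tested genes that fell and rose. TOP2A and BUB1B fell (-0.27 and -0.18), and AURKA, UBE2C and ANLN rose (0.27, 0.23 and 0.12). The share of cells in S phase was not measured, and its part in the falls of repair genes was not tested.

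**Figure D4:**
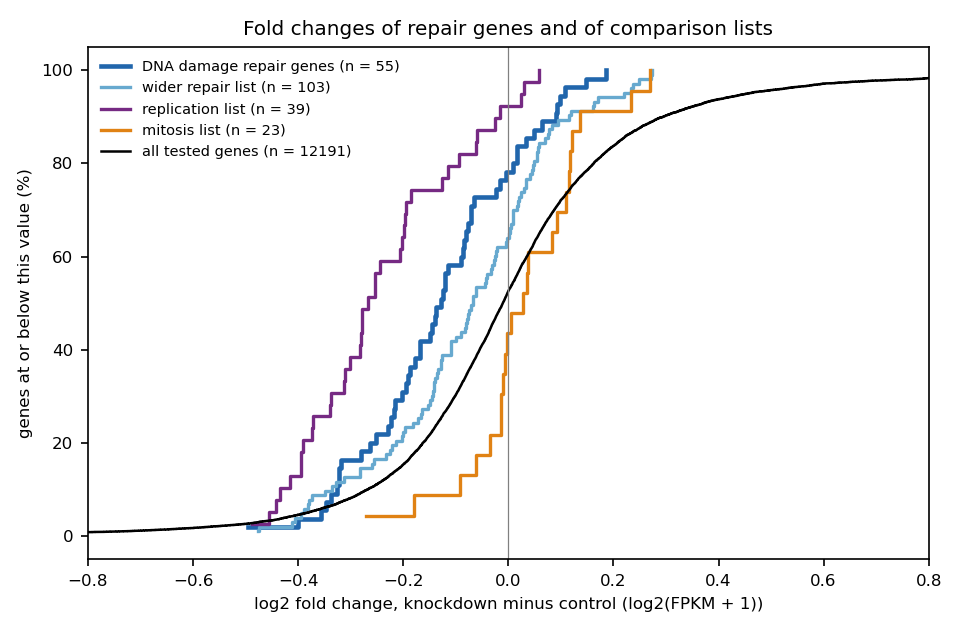
Share of genes (percent) at or below each log2 fold change (knockdown minus control) for the 55 tested repair genes, 103 further repair genes, 39 replication genes, 23 mitosis genes and all 12191 tested genes. The medians are -0.13, -0.07, -0.27, 0.03 and -0.01, and the axis leaves out the outermost values of all tested genes.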

How the data were processed

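FastQC 0.11.9, Trim Galore 0.6.5-1 and GRCh38 are named in the submitters' processing notes; aligner, counter, annotation and strand setting are not given there. Per the deposited table, the authors supplied FPKM for 60623 genes in 6 libraries, so no count model was run. Because FPKM are relative, higher levels of abundant transcripts lower the rest. Genes with at least 1 FPKM in at least 3 libraries (12191) were fitted with limma 3.58.1 in R 4.3.3 on log2(FPKM + 1), with a trend and no covariate, and adjusted by Benjamini-Hochberg at 0.05. The pseudocount of 1 understates changes of low genes. The genes and lists were chosen with earlier results of these data known. Values per library are given for genes that passed and the most abundant of each pathway. From other lists up to 3 genes with the smallest adjusted p, and 1 of the other direction, are named. MCM4, PMS2CL, NPAT, CDC25A, BUB1B and ANLN were chosen after their values were seen, and a few genes of the lists are not reported here. Positions and overlaps come from GENCODE 29, which holds 12146 tested genes; chromosome 3 was divided at an approximate centromere. Estimated depth put 87.8% to 88.4% of low values within 0.05 of a whole fragment number, and its precision covers counting error only. Promoters are from RefSeq. Alternatives changed the filter, pseudocount, scaling, trend or replicate block, or left out a library.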

Additional observations from a re-analysis of the deposited data

How the results depend on the processing

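Of the 22 repair genes that passed, 12 passed in every alternative that tested them (ATR, ATRIP, TOPBP1, BRCA1, RBBP8, EXO1, BLM, FANCD2, OGG1, APEX1, XPC and PRKDC), 10 were lost in 1 or more, and 0 changed direction. Leaving out 1 library at a time gave 13 to 17 repair genes that fell and 0 to 1 that rose, 3 to 4 falls and 0 to 1 rises in the checkpoint set, 1 to 2 falls in the Fanconi set, 0 to 1 in mismatch repair, 1 to 3 in end joining and 13 to 20 in the further repair list. Over all genes it gave 964 to 1327 falls and 894 to 1352 rises, and the median of the repair genes was -0.16 to -0.11. Without a filter on low values 1013 of all genes fell, 15 repair genes fell and 0 rose, with 3 checkpoint and 0 mismatch repair falls, and 14 falls in the further list; ATM (limma adjusted p = 0.0728), CHEK1 (0.0540), CHEK2 (0.101), RAD52 (0.0600), MSH3 (0.0818), MSH6 (0.0795) and PMS2 (0.0830) were then lost. MSH3 was lost under median-of-ratios scaling (0.0523), and MSH6 under quantile normalization (0.0571) and without the trend (0.0761). At 5 FPKM there were 15 falls, 3 in the checkpoint set and 1 in mismatch repair. Genes with no exon overlap gave 6 falls and 0 rises. The cause of these changes was not tested. With the replicate block 18 repair genes fell and 0 rose, with 4 falls in recombination, 0 rises in the checkpoint set and 1 fall in mismatch repair; ATM (limma adjusted p = 0.0846), CHEK2 (0.0921), RAD52 (0.0706), MSH3 (0.101) and MSH6 (0.0858) missed the threshold and PARP1 passed (0.0486). Same-numbered libraries deviated from their group means with correlations of 0.016, 0.057 and -0.071, and not every library correlated best with its own number. These values show no clear pairing by number, but they cannot exclude that libraries were prepared in pairs. With 3 libraries a group and FPKM in place of counts, small changes of genes of low level were not detectable.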
